A study of Mus musculus with 9 samples.

Results

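The genes described here are 10 members of the S100 family, S100a1, S100a4, S100a6, S100a8, S100a9, S100a10, S100a11, S100a13, S100a14 and S100a16, taken by name from the array annotation, which pairs them with 14 probe sets. They are 10 of the genes on an array that measured 18193 genes by 45037 probe sets. A probe set is a group of short oligonucleotides that reports 1 transcript region. For 9 of the 10 genes at least 1 probe set was annotated to that gene alone. The only probe set of S100a11, 1460351_at, was annotated to 3 genes (S100a11, S100a11-ps and Gm12854), so its signal is given as that of the probe set.

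S100 proteins are small calcium-binding proteins with a pair of EF-hand motifs that mostly work as dimers. On binding calcium they expose a surface that grips partner proteins, such as annexins, enzymes and parts of the cytoskeleton, and several are also secreted and act on receptors of other cells. Most S100 genes lie next to each other in a cluster on mouse chromosome 3, near genes of the epidermal cornified envelope. In airway and other epithelia, S100A8 and S100A9 are known as antimicrobial proteins that are also abundant in neutrophils and monocytes.

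RNA was measured on 9 Affymetrix mouse arrays, 3 biological replicates for each of 3 populations sorted from the tracheal epithelium. All mice were hemizygous for KRT5-GFP, a transgene that puts green fluorescent protein under the keratin 5 promoter, the promoter of a basal cell keratin, and none of the groups came from mice without it. The first population was GFP+ and bound the isolectin GSI-A3B (GFP+ gate), the second bound the lectin but was GFP- (lectin-only gate), and both are labelled basal cells. The third was negative for both and is labelled columnar epithelium (columnar gate). Cells came from enzymatic digestion and dissection, and their RNA was amplified before labelling. The labels used here state neither the age and sex of the mice nor whether animals were pooled.

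Values are log2 signals, so a difference of 1 is a 2-fold difference in signal. Signals of different probe sets are not on a common scale, and each gene was compared only with itself across gates. A gene is said to be higher or lower, or to have risen or fallen, where the limma adjusted p was under 0.05 and the difference was at least 2-fold. Errors of levels are standard deviations (SD, n = 3 arrays per gate) and errors of differences are limma standard errors (SE), with a median of 0.24 over all genes. A level of 3.56 marks background. Lectin-only replicate 3 stood apart, with a median of 5.44 and 73% of probe sets above background. On the other 8 arrays medians ran from 4.91 to 5.16, with 65.3% to 66.3% above background. Called S100 genes and marker lists of the lectin-only gate are therefore also given without that replicate, and other genes where leaving it out changed a call.

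Defining markers of the labelled cell types were high where the labels place them, and the lectin-only gate also held leukocyte transcripts. Krt5 averaged 13.43 ± 0.01 in GFP+ cells, 12.88 ± 0.15 in lectin-only cells and 7.95 ± 1.12 in columnar cells. Foxj1, the regulator of motile cilia, averaged 4.09 ± 0.40, 5.44 ± 0.32 and 7.30 ± 0.10 in the same order. All 14 basal markers were higher in GFP+ than in columnar cells, and 12 of 14 were higher in lectin-only than in columnar cells. Of 12 measured ciliated markers, 10 were lower in GFP+ and 8 in lectin-only than in columnar cells, and of 12 secretory markers 6 were lower in each. Without lectin-only replicate 3, the lectin-only gate had 11 basal markers higher, 8 ciliated and 4 secretory markers lower. Scgb1a1, the club cell secretoglobin, lay between 13.49 and 13.88 on all arrays and did not pass the test in any comparison. Ptprc, which encodes the leukocyte antigen CD45, averaged 5.41 ± 0.87 in GFP+ cells, 8.95 ± 0.72 in lectin-only cells and 3.25 ± 0.98 in columnar cells.

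The S100 genes did not move as a block. In GFP+ against columnar cells, S100a4, S100a8, S100a9 and S100a10 rose, S100a1 fell and the other 4 did not meet both limits, S100a13 and S100a16 passing on the adjusted p alone. That is 4 of 9 genes higher and 1 of 9 lower, where 11.2% of all genes met both, 5.88% higher and 5.33% lower. On all GFP+ arrays, 6 of the 9 lay above and 2 below every columnar array, as did 15.8% and 17.8% of all genes. The median difference was 0.73 over the 9 genes and -0.04 over all genes, with a range from -1.31 to 2.89.

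In lectin-only against columnar cells, S100a4, S100a8, S100a9 and S100a10 were again higher, and S100a8 and S100a9 had the largest S100 differences. Of all genes, 8.85% met both limits, 6.47% higher and 2.38% lower. On all lectin-only arrays, 6 of the 9 lay above and 2 below every columnar array, as did 16% and 8.61% of all genes. The median over the 9 S100 genes was 0.99, against 0.07 over all genes, with a range from -0.58 to 5.15. By limma 0 of 9 were lower, although 1, S100a1, had an unadjusted p under 0.05, as did 6.93% of all genes in that direction. Both comparisons use the same columnar arrays. Without lectin-only replicate 3 the count of higher genes was 5, S100a14 being the addition.

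In GFP+ against lectin-only cells, S100a8 was the 1 gene of 9 that was lower, and 0 were higher by limma, also at an unadjusted p under 0.05, where 4.11% of all genes were. Of all genes, 3.74% met both limits here, 2.84% lower and 0.896% higher. The median over the 9 genes was -0.29, against -0.10 over all genes. S100a1, S100a8 and S100a9 lay lower on all GFP+ arrays than on all lectin-only arrays, as did 13.3% of all genes. On the other side 0 of the 9 lay above, against 5.24% of all genes.

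**Figure D1:**
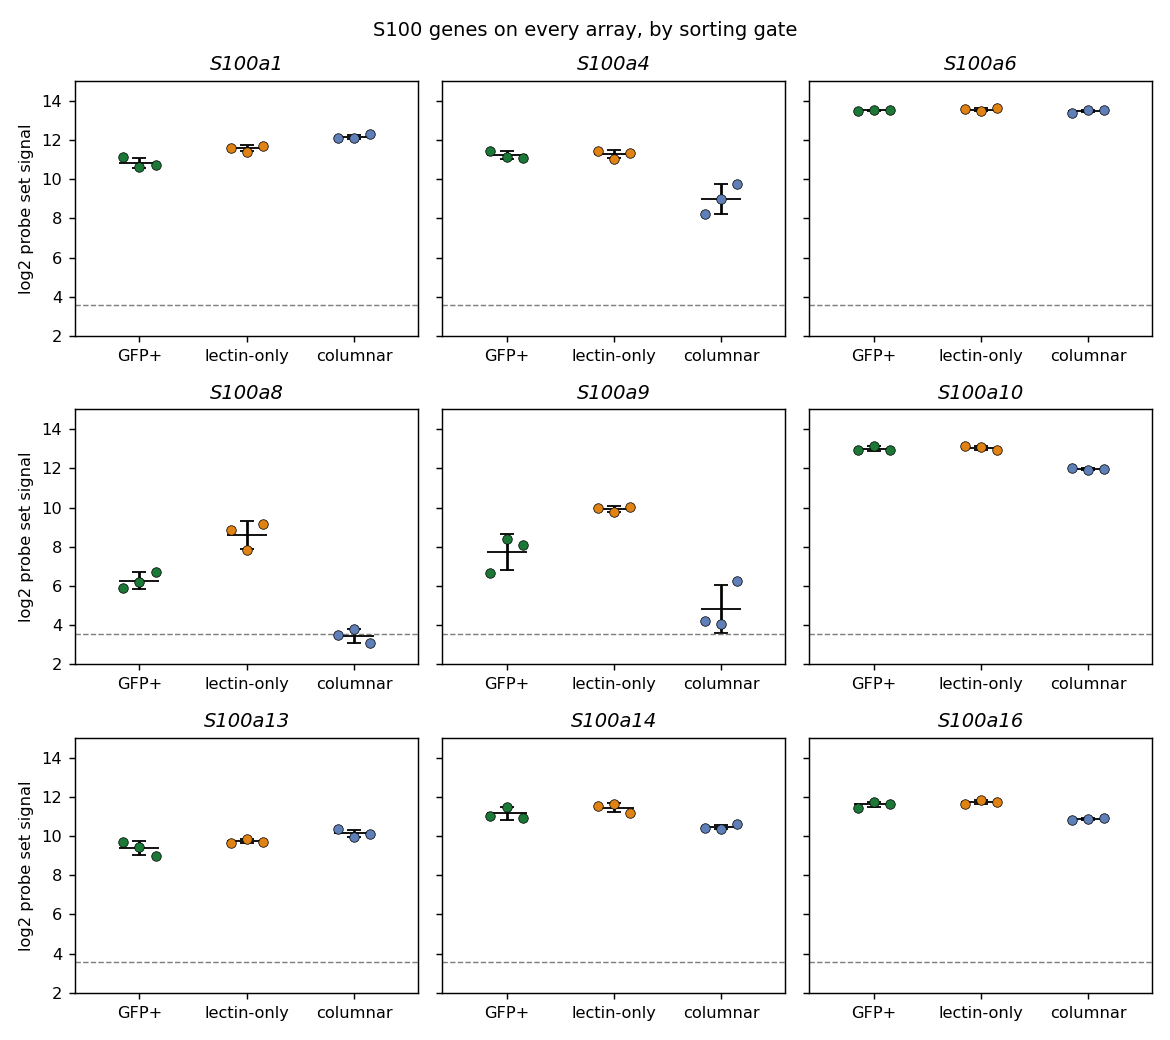
Log2 probe set signal (vertical axis) of the 9 S100 genes with a probe set of their own on every array, by gate; points are arrays, horizontal bars means, whiskers SD over 3 arrays, and the dashed line the background level of 3.56. S100a8 and S100a9 spread over 6.08 and 6.01 log2 units, while S100a6 stayed within 0.21.

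**Figure D2:**
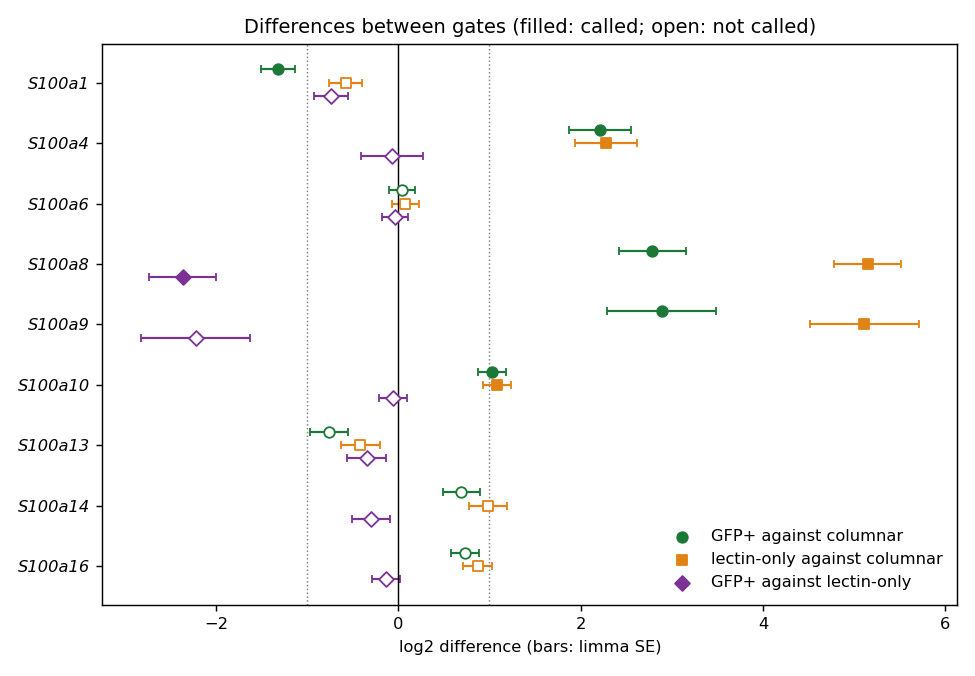
Log2 difference between gates (horizontal axis) of the same genes, with limma SE as bars; filled symbols passed both the test and the 2-fold limit, and dotted lines mark 2-fold. S100a8 was the only one of the 9 with a filled symbol in all 3 comparisons.

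S100a8 and S100a9 encode the subunits of calprotectin, a secreted complex that withholds metal ions from microbes and signals through the receptors Tlr4 and Ager. In the RefSeq annotation (GRCm38.p6) they are neighbours on chromosome 3. Their start regions, 250 bases before to 10 after the listed start, are shown because these genes differed most between gates. Capitals mark TATAAA on the gene's strand, the letters of a TATA box.
S100a8 (chr3:90668821-90669080, + strand): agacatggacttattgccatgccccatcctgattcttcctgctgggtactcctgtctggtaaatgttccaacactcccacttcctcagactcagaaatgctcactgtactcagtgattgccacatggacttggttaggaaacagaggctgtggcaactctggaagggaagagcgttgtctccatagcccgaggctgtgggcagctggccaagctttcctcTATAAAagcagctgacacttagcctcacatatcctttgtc
S100a9 (chr3:90695712-90695971, - strand): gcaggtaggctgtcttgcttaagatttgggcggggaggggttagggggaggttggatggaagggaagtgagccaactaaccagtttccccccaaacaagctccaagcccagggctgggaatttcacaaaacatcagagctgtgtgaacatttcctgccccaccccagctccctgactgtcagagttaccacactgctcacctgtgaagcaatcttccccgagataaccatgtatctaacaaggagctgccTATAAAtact
TATAAA began at position -30 of S100a8 and at position 1 of S100a9, counting the listed start as 1. On either strand it was present in 12.7% of the 32851 promoter windows of the same length. TTNNGNAA, the core of sites bound by C/EBP factors, matched once in the S100a8 window on the gene's strand and 2 times in the S100a9 window on the other strand, and was present in 37.7% of all windows on either strand. TGANTCA, the letters of an AP-1 site, had 0 matches in both windows and was present in 7.03% of all windows.

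S100a8 had signals of 5.88, 6.18 and 6.72 in GFP+ cells (6.26 ± 0.43), of 8.86, 7.82 and 9.18 in lectin-only cells (8.62 ± 0.71) and of 3.49, 3.83 and 3.10 in columnar cells (3.47 ± 0.36). The 3 gates did not overlap, and 2 of the 3 columnar arrays were under background. GFP+ cells were above columnar cells by 2.79 ± 0.37 (6.90-fold, adjusted p = 0.000784), or by 2.61 with the dim columnar arrays set to the background level. In lectin-only cells the gene was above columnar cells by 5.15 ± 0.37 (35.5-fold, adjusted p = 5.77e-05), or by 4.98 with the dim arrays at that level. GFP+ against lectin-only cells gave -2.36 ± 0.37, a 5.14-fold lower signal in GFP+ cells (adjusted p = 0.00803). Without lectin-only replicate 3 the last 2 differences were 4.87 and -2.08, and both passed the test (adjusted p = 0.000429 and 0.0302).

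S100a9 had signals of 6.68, 8.41 and 8.07 in GFP+ cells (7.72 ± 0.92), of 9.99, 9.77 and 10.05 in lectin-only cells (9.94 ± 0.15) and of 4.20, 4.04 and 6.25 in columnar cells (4.83 ± 1.23). The gates did not overlap here either, but GFP+ replicate 1 and columnar replicate 3 came within 0.43 of each other. GFP+ cells were above columnar cells by 2.89 ± 0.60 (7.40-fold, adjusted p = 0.00973), and lectin-only cells by 5.11 ± 0.60 (34.5-fold, adjusted p = 0.00065). GFP+ against lectin-only cells gave -2.22 ± 0.60, with a 95% interval from -3.56 to -0.88, and missed the threshold (adjusted p = 0.077). That call rested on the setting: the adjusted p was 0.0361 with only those 2 gates in the fit and 0.0214 without columnar replicate 3, but 0.202 without lectin-only replicate 3. Without that array the difference from columnar cells was 5.05 (adjusted p = 0.00408).

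S100a8 and S100a9 had the same order of gates. Within the columnar gate replicate 3 was the highest for S100a9, while S100a8 was too near background there to order the arrays. In the lectin-only gate, replicate 2 was the lowest for both, by 1.04 below the next array for S100a8 and by 0.22 for S100a9. Likeness between genes was measured as the root-mean-square difference of their signals over the 9 arrays after each gene's own mean was subtracted. It was 0.86 log2 units between S100a8 and S100a9, against 0.16 between S100a10 and S100a16, the most alike S100 pair.

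The 3 genes on the array most like S100a8 were Sox7 (0.584), Prkcb (0.625), a protein kinase C isoform, and H2-Ab1 (0.661), which encodes an MHC class II chain of antigen-presenting cells. For S100a9 they were Calm4 (0.409), a calmodulin-like gene of keratinocytes, Crabp2 (0.475), which binds retinoic acid, and Lypd3 (0.535), a surface protein of stratified epithelium. The same measure was taken to whole marker lists, after the values had been seen. From S100a8, the median to 13 pan-leukocyte genes was 0.90, to 11 dendritic cell genes 1.23 and to 15 squamous epithelial genes 1.40. It was 1.47 to both the 14 macrophage and monocyte and the 11 lymphocyte genes, and 2.01 to 21 neutrophil genes. From S100a9 the medians were 1.10 to the pan-leukocyte genes, 1.31 to the dendritic cell genes and 1.16 to the squamous genes. They were 1.55 to the macrophage and monocyte, 1.71 to the lymphocyte and 2.11 to the neutrophil genes. The measure is not scaled, so genes that hardly move also lie far off: S100a6 lay at 2.11 from S100a8 and 2.18 from S100a9. Medians near those values cannot tell unlike genes from flat or dim ones. The closest neutrophil gene, Stfa3, lay at 0.88 from S100a8 and 0.81 from S100a9, and the closest pan-leukocyte gene, Laptm5, at 0.72 and 0.81.

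Pan-leukocyte genes ran along with S100a8 and S100a9 in the lectin-only gate, and less clearly in the GFP+ gate. Of 13 such genes, 3 were higher and 1 lower in GFP+ than in columnar cells, with a median difference of 0.96. In lectin-only against columnar cells 11 were higher (median 4.49), and in GFP+ against lectin-only cells 10 were lower (median -3.45). Without lectin-only replicate 3 these counts were 2 higher and 1 lower, 10 higher, and 10 lower. Their mean log2 signal was 6.45 to 7.61 per array in GFP+ cells, 9.30 to 10.18 in lectin-only cells and 5.66 to 6.27 in columnar cells. With all arrays, 5.88% of all genes were higher and 5.33% lower in GFP+ than in columnar cells. The share higher in lectin-only than in columnar cells was 6.47%, and that lower in GFP+ than in lectin-only cells 2.84%.

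The gene lower in GFP+ than in columnar cells was Lcp1, an actin-bundling protein, and its bright probe set led the summed linear signal of the list. That sum, which is only a rough summary because probe sets differ in scale, was 3684 to 5102 in GFP+ cells, 13116 to 20524 in lectin-only cells and 5082 to 6423 in columnar cells. Lcp1 made up 41.7% to 71.8% of it in GFP+ cells, 17% to 25.4% in lectin-only cells and 79.7% to 87.9% in columnar cells. The other 12 genes summed to 1126 to 2974 in GFP+ cells, 9788 to 17039 in lectin-only cells and 779 to 1054 in columnar cells. None of the 13 genes was under background on all arrays of a gate. Within the lectin-only gate all 13 were highest on replicate 3, as 68.5% of all genes were, and 10 of 13 were lowest on replicate 2, as were 39.5% of all genes. Within the GFP+ gate 5 of 13 were lowest on replicate 1, as were 31% of all genes. Within the columnar gate 7 of 13 were highest on replicate 3 and 3 of 13 lowest on replicate 1, against 35.9% and 39.3% of all genes.

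Many, but not all, listed genes of macrophages, dendritic cells and lymphocytes were higher mainly in the lectin-only gate. In GFP+ against columnar cells 0 of 14 macrophage and monocyte genes were higher by limma (1 at an unadjusted p under 0.05) and 1 was lower, with a median of -0.21. There 4 of 11 dendritic cell genes (median 0.36) and 1 of 11 lymphocyte genes (median 0.22) were higher. In lectin-only against columnar cells, 11 of the 14, 7 of the 11 and 6 of the 11 were higher. In GFP+ against lectin-only cells, 10, 7 and 3 were lower in the same order of lists, against 2.84% of all genes. Without lectin-only replicate 3, 1 dendritic cell gene and 2 lymphocyte genes were higher in GFP+ than in columnar cells, 11, 7 and 5 genes of the lists were higher in lectin-only than in columnar cells, and 8, 6 and 2 were lower in GFP+ than in lectin-only cells. Cd83, a dendritic cell activation marker, was above columnar cells by 5.80 ± 0.68 in lectin-only cells (adjusted p = 0.000681), and H2-Ab1 by 5.42 ± 0.52 (adjusted p = 0.000221). Of the same list, Flt3 was under background on all arrays, and Ccr7, Xcr1 and Cd209a on all GFP+ and columnar arrays. Zbtb46 averaged 5.87 ± 0.60 in lectin-only and 6.21 ± 1.42 in columnar cells. The lymphocyte genes Cd79a, Cd79b, Ms4a1, Cd8a and Cd4 were not higher in lectin-only than in columnar cells. Among 13 immediate early and stress genes, which respond to dissociation, 2 were higher in GFP+ and 1 in lectin-only than in columnar cells. The shares of all genes were 5.88% and 6.47%.

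Of 21 measured neutrophil genes, 1 was higher and 2 were lower in GFP+ than in columnar cells, against 5.88% and 5.33% of all genes. In lectin-only against columnar cells 5 were higher and 1 lower, against 6.47% and 2.38% of all genes. Without lectin-only replicate 3 they were 3 and 1. At an unadjusted limma p under 0.05, 9 of 21 were higher there with all arrays, as were 14.9% of all genes. In GFP+ against lectin-only cells limma put 0 past the limits, or 1 lower without that replicate, and 10 of 21 were lower at an unadjusted p under 0.05, as were 11.2% of all genes. Il1r2, the decoy receptor for interleukin 1, was above columnar cells by 4.61 ± 0.50 in GFP+ cells (adjusted p = 0.000243). Stfa3, a stefin gene, was above them by 4.59 ± 0.76 in lectin-only cells (adjusted p = 0.00405). Hdc, which makes histamine, was lower in GFP+ than in columnar cells, at -3.83 ± 0.49 (adjusted p = 0.000633).

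Linear signals of the neutrophil list summed to 8234 to 12992 in GFP+ cells, 11721 to 15392 in lectin-only cells and 17740 to 18741 in columnar cells, and Ltf, which encodes lactoferrin, a secretory product of airway glands as well, made up at least 83.3% of the sum on each array. The other 20 genes summed to 673 to 1094 in GFP+ cells, 1083 to 1962 in lectin-only cells and 1115 to 1734 in columnar cells. The granule genes Mpo, Elane and Ctsg and the receptor Cxcr2 were under background on all 9 arrays. Prtn3 was under it on all lectin-only and columnar arrays, and Csf3r, Mmp8, Trem1 and Stfa2l1 on all GFP+ and columnar arrays. Ngp and Fpr2 were under it on all GFP+ arrays. On the lectin-only arrays 5 of the 21 genes were always under background. Trem1, Fpr2 and Clec4d were above it on each of those arrays, averaging 4.17 ± 0.44, 4.26 ± 0.63 and 6.26 ± 0.47.

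Genes of squamous, or hillock, epithelium were higher in both lectin-binding gates. Of 15 measured genes, 8 were higher in GFP+ than in columnar cells (median difference 3.15), against 5.88% of all genes. In lectin-only against columnar cells 12 were higher (median 4.39), against 6.47% of all genes, or 11 without lectin-only replicate 3. In GFP+ against lectin-only cells limma put 0 past the limits, and 3 of 15 were lower at an unadjusted p under 0.05, against 11.2% of all genes. The median difference there was -1.05, and 6 of 15 lay lower on all GFP+ than on all lectin-only arrays, as did 13.3% of all genes. Krtdap, a gene of differentiating keratinocytes, was above columnar cells by 5.34 ± 0.91 in GFP+ cells (adjusted p = 0.00347) and by 6.34 ± 0.91 in lectin-only cells (adjusted p = 0.00195). Linear signals of the list summed to 37809 to 79190 in GFP+ cells, 81772 to 101284 in lectin-only cells and 26203 to 32253 in columnar cells, with Sprr1b under background on all columnar arrays. Without Anxa1, which led the sum, the ranges were 27972 to 67181, 67660 to 87627 and 14716 to 22628 in the same order.

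The array order of the squamous genes within gates was set beside that of S100a8 and S100a9. Of the 15 genes, 12 were highest on columnar replicate 3 within the columnar gate, where S100a9 was highest, and 35.9% of all genes were highest there. Also 12 of 15 were lowest on columnar replicate 1, as were 39.3% of all genes, whereas S100a9 was lowest on columnar replicate 2 (4.04, against 4.20 on replicate 1). Another count of 12 of 15 was lowest on GFP+ replicate 1 within the GFP+ gate, where both S100a8 and S100a9 were lowest, and 31% of all genes were lowest there. In the lectin-only gate S100a8 and S100a9 were lowest on replicate 2 and highest on replicate 3, but 1 of the 15 was lowest on replicate 2 and 2 of the 15 were highest on replicate 3. Of all genes, 39.5% were lowest on lectin-only replicate 2 and 68.5% highest on lectin-only replicate 3. These counts were made after the values had been seen. The part of leukocyte and of squamous genes in the S100a8 and S100a9 results was not tested. In sorted populations, fewer cells of a type and less RNA per cell cannot be told apart.

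**Figure D3:**
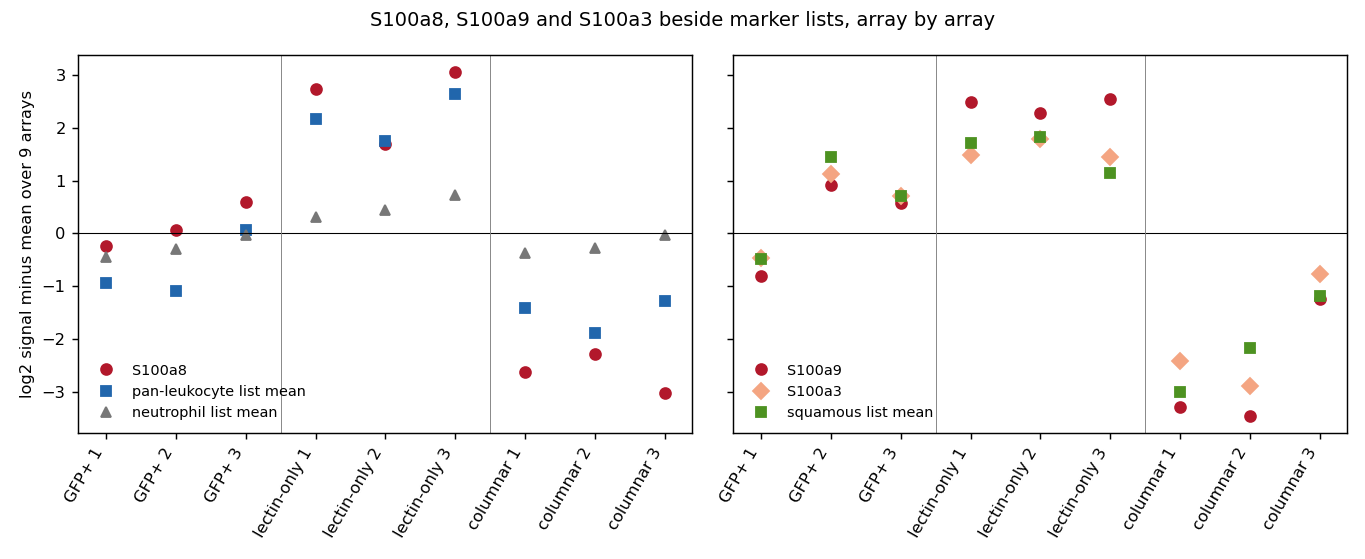
Log2 signal of each array minus the mean over 9 arrays (vertical axis), for S100a8 beside the means of the pan-leukocyte and neutrophil lists (left) and for S100a9 and S100a3 beside the mean of the squamous list (right), array by array. S100a8 and the pan-leukocyte and neutrophil means were all highest on lectin-only replicate 3, where the squamous mean was the lowest of that gate. Within that gate 68.5% of all genes were highest on that array. Columnar replicate 3 was the highest columnar array for S100a9, S100a3 and both the squamous and the pan-leukocyte mean.

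S100a4, also known as metastasin or fibroblast-specific protein, binds non-muscle myosin and is used as a marker of fibroblasts and some leukocytes. Its start region, with TATAAA at position -31, is shown because it is the third member that rose by over 4-fold.
S100a4 (chr3:90603520-90603779, + strand): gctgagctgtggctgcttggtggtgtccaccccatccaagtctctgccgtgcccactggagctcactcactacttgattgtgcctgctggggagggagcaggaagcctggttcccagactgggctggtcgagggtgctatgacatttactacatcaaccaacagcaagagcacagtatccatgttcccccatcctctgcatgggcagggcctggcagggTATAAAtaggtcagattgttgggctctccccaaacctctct
S100a4 had signals of 11.43, 11.11 and 11.07 in GFP+ cells (11.21 ± 0.20), of 11.43, 11.04 and 11.35 in lectin-only cells (11.27 ± 0.21) and of 8.23, 8.99 and 9.77 in columnar cells (9.0 ± 0.77). Every array of both lectin-binding gates was above every columnar array, and the widest spread was within the columnar gate. GFP+ cells were above columnar cells by 2.21 ± 0.34 (4.63-fold, adjusted p = 0.0019) and lectin-only cells by 2.28 ± 0.34 (4.85-fold, adjusted p = 0.00237), or by 2.24 without lectin-only replicate 3 (adjusted p = 0.0112). Between the lectin-binding gates the difference was -0.07, with a 95% interval from -0.83 to 0.69 (adjusted p = 0.964), and its sign turned with arrays centred on their medians, to 0.09.

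Among the pan-leukocyte genes the median difference in GFP+ against lectin-only cells was -3.45, and the gene closest to S100a4 in the likeness measure was Arhgdib (0.75), which averaged 8.84 ± 0.67 in GFP+ cells, 9.54 ± 0.22 in lectin-only cells and 5.92 ± 0.42 in columnar cells. Of 11 fibroblast genes, 3 were higher and 3 lower in GFP+ than in columnar cells, and 3 were higher in lectin-only than in columnar cells, also without lectin-only replicate 3. Of all genes, 5.88% were higher and 5.33% lower in GFP+ and 6.47% higher in lectin-only than in columnar cells. The mean log2 signal of the fibroblast genes was 5.53 to 5.81 in GFP+ cells, 6.28 to 6.83 in lectin-only cells and 5.71 to 5.92 in columnar cells. Lum was under background on all 9 arrays. The part of leukocyte and fibroblast genes in the S100a4 result was not tested. The genes most like S100a4 were Fzd10os (0.249), Ces2g (0.297), a carboxylesterase, and St6galnac2 (0.339), a sialyltransferase.

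S100a10, the partner of annexin A2 in a complex at the plasma membrane that also binds plasminogen, had 3 probe sets, and its differences depended on which was read. The brightest, 1456642_x_at, which stands for the gene, had signals of 12.93, 13.14 and 12.94 in GFP+ cells (SD 0.12), of 13.15, 13.08 and 12.95 in lectin-only cells (13.06 ± 0.10) and of 12.02, 11.91 and 11.99 in columnar cells (11.97 ± 0.06). The lectin-binding gates lay about 1 log2 unit above the columnar gate with no overlap. The difference was 1.03 ± 0.15 in GFP+ against columnar cells (2.04-fold, adjusted p = 0.00164) and 1.09 ± 0.15 in lectin-only against columnar cells (2.13-fold, adjusted p = 0.00179), or 1.14 without lectin-only replicate 3 (adjusted p = 0.00292).

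In the maker's naming, the _x suffix marks probe sets that can cross-hybridise with other transcripts. A second probe set of S100a10, 1416762_at, had signals of 12.52, 12.77 and 12.21 in GFP+ cells, of 12.63, 12.92 and 12.56 in lectin-only cells and of 10.84, 10.71 and 10.94 in columnar cells. It put the difference at 1.67 ± 0.20 in GFP+ cells (3.18-fold, adjusted p = 0.000738 over all probe sets) and at 1.87 ± 0.20 in lectin-only cells (3.66-fold, adjusted p = 0.000657). The dimmest, 1439348_at, averaged 6.56 ± 0.57 in GFP+ cells, 6.08 ± 0.37 in lectin-only cells and 4.34 ± 0.35 in columnar cells, differences of 2.23 ± 0.32 and 1.74 ± 0.32 (adjusted p = 0.00224 and 0.0119). All 3 probe sets had the same direction against columnar cells, with sizes from 1.03 to 2.23. The call of the brightest sat at the 2-fold limit: it was lost at 0.96 without GFP+ replicate 2, at 1.00, just under the limit, without columnar replicate 2, and at 0.95 and 0.85 in the 2 comparisons with arrays centred on their medians.

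Between the lectin-binding gates S100a10 differed by -0.06, with a 95% interval from -0.40 to 0.29 (adjusted p = 0.922). That sign turned to 0.10 with arrays centred and to 0.08 with the mean over its probe sets. The genes most like S100a10 were Hspb1 (0.117), a small heat shock protein, Lims1 (0.137), an adaptor at integrin adhesions, and Anxa8 (0.139), an annexin. Anxa2, the annexin that S100A10 binds, and Ahnak, a scaffold bound by that complex, were picked out after their values were seen. Anxa2 averaged 13.40 ± 0.10 in GFP+ cells, 13.51 ± 0.11 in lectin-only cells and 13.23 ± 0.10 in columnar cells and passed no test (adjusted p = 0.61, 0.366 and 0.822 in the 3 comparisons). Ahnak averaged 13.37 ± 0.09, 13.43 ± 0.07 and 13.25 ± 0.09 in the same order (adjusted p = 0.709, 0.585 and 0.923).

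**Figure D4:**
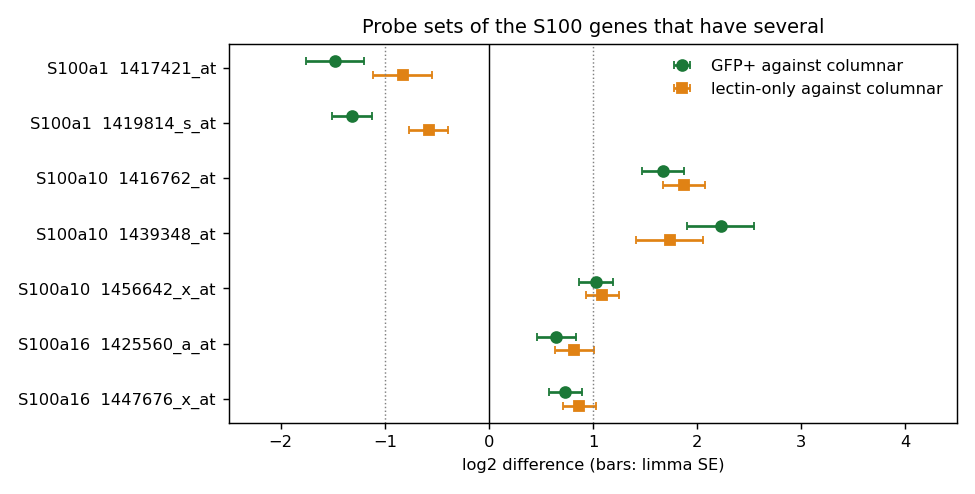
Log2 difference from columnar cells (horizontal axis) by each probe set of the S100 genes that have several, with limma SE as bars; circles are GFP+ cells, squares lectin-only cells, and dotted lines mark 2-fold. The 3 probe sets of S100a10 have 1 direction and sizes from 1.03 to 2.23.

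S100a1, known for binding calcium release channels in heart muscle, fell in GFP+ cells. Signals were 11.12, 10.64 and 10.74 in GFP+ cells (10.83 ± 0.26), 11.61, 11.40 and 11.70 in lectin-only cells (11.57 ± 0.16) and 12.08, 12.09 and 12.28 in columnar cells (12.15 ± 0.11). No arrays overlapped between gates, with lectin-only cells in between. GFP+ against columnar cells gave -1.31 ± 0.18, a 2.49-fold lower signal (adjusted p = 0.00118). Lectin-only against columnar cells gave -0.58 (adjusted p = 0.0868) and GFP+ against lectin-only cells -0.74, with a 95% interval from -1.15 to -0.32 (adjusted p = 0.0603), and neither passed the test.

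The other probe set of S100a1, 1417421_at, gave -1.48 ± 0.28 in GFP+ against columnar cells (adjusted p = 0.00988 over all probe sets) and -0.83 in lectin-only against columnar cells (adjusted p = 0.153). By their means both probe sets thus put GFP+ cells lowest and columnar cells highest. On 1417421_at, however, GFP+ and lectin-only arrays overlapped (-0.65 ± 0.28, adjusted p = 0.433 over all probe sets). The genes most like S100a1 were Fam174b (0.121), B4galnt1 (0.147), a glycosyltransferase of ganglioside synthesis, and Tmie (0.151), known for its role in hair cells of the inner ear.

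S100a13, known for the export of FGF1 and interleukin 1 alpha, starts 104 bases from S100a1 on the opposite strand. This interval is shown because the genes read away from each other across it. It is 58.7% G and C and holds 0 TATAAA on either strand.
Interval between the starts (chr3:90514331-90514434, + strand): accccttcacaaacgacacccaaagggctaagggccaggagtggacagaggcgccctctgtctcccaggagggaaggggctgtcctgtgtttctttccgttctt
S100a13 had signals of 9.71, 9.45 and 8.99 in GFP+ cells (9.38 ± 0.37), of 9.64, 9.84 and 9.70 in lectin-only cells (9.73 ± 0.10) and of 10.34, 9.97 and 10.11 in columnar cells (10.14 ± 0.19). All arrays of both lectin-binding gates were under all columnar arrays, while the lectin-binding gates overlapped. The difference was -0.76 ± 0.21 in GFP+ against columnar cells (adjusted p = 0.0424), under the 2-fold limit. That adjusted p ran from 0.0275 to 0.145 without 1 array and was 0.0677 with only those 2 gates in the fit. Lectin-only against columnar cells gave -0.41 ± 0.21 (adjusted p = 0.311). Likeness between S100a1 and S100a13 was 0.31 log2 units.

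S100a14 and S100a16 are S100 genes expressed in many epithelia. S100a14 had signals of 11.03, 11.50 and 10.93 in GFP+ cells (11.15 ± 0.31), of 11.54, 11.62 and 11.19 in lectin-only cells (11.45 ± 0.23) and of 10.41, 10.37 and 10.60 in columnar cells (10.46 ± 0.12). S100a16 had signals of 11.45, 11.72 and 11.65 in GFP+ cells (11.61 ± 0.14), of 11.64, 11.83 and 11.76 in lectin-only cells (11.74 ± 0.10) and of 10.84, 10.86 and 10.92 in columnar cells (10.87 ± 0.04). For both, every array of the lectin-binding gates was above every columnar array.

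Their differences stayed under 2-fold. S100a14 gave 0.69 ± 0.21 in GFP+ against columnar cells (adjusted p = 0.0542) and 0.99 ± 0.21 in lectin-only against columnar cells (adjusted p = 0.0131). The second value passed the 2-fold limit without lectin-only replicate 3 (1.12) and without columnar replicate 3 (1.06). S100a16 gave 0.73 ± 0.15 (adjusted p = 0.0109) and 0.87 ± 0.15 (adjusted p = 0.00586) by 1447676_x_at, which also has the _x suffix. The other probe set of S100a16, 1425560_a_at, gave 0.65 ± 0.19 and 0.82 (adjusted p = 0.0673 and 0.0314 over all probe sets). GFP+ and lectin-only cells overlapped for both genes (adjusted p = 0.596 for S100a14 and 0.782 for S100a16). The likeness of S100a10 was 0.19 to S100a14 and 0.16 to S100a16, and that between the last 2 was 0.19.

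S100a6, or calcyclin, named for its cell cycle regulation in fibroblasts, was the steadiest of the 9. Its start region holds no TATAAA and is shown against those of S100a4 and S100a8 on the same strand of the cluster.
S100a6 (chr3:90612644-90612903, + strand): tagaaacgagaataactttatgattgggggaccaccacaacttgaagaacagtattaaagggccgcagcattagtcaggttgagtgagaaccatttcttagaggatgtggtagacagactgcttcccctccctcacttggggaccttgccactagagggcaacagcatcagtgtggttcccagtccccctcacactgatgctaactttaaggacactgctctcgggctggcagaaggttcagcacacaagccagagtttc
S100a6 had signals of 13.48, 13.51 and 13.54 in GFP+ cells (13.51 ± 0.03), of 13.55, 13.48 and 13.60 in lectin-only cells (13.54 ± 0.06) and of 13.39, 13.51 and 13.50 in columnar cells (13.47 ± 0.07). The 3 gates overlapped. Of all genes, 0.0934% had a smaller SD over the 9 arrays than its 0.059. The 95% interval of the difference was -0.28 to 0.37 in GFP+ against columnar cells and -0.25 to 0.40 in lectin-only against columnar cells (adjusted p = 0.908 and 0.837). The highest deposited value on any array was 14.96. Whether signals this high are compressed was not tested.

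The probe set shared by S100a11, a member that cross-links into the cornified envelope, its pseudogene and Gm12854 had signals of 13.62, 13.84 and 13.69 in GFP+ cells, of 13.65, 13.86 and 13.81 in lectin-only cells and of 13.91, 13.88 and 13.83 in columnar cells. It gave -0.16 ± 0.16 in GFP+ against columnar cells (adjusted p = 0.711 over all probe sets) and -0.10 ± 0.16 in lectin-only against columnar cells (adjusted p = 0.847). Signals of the gene and its pseudogene cannot be told apart on this probe set.

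In the RefSeq order on chromosome 3, S100a1, S100a13, S100a14, S100a16, S100a3, S100a2, S100a4, S100a5, S100a6, S100a7a, S100a8 and S100a9 follow each other with 0 other coding genes between neighbours. S100a6, within 0.21 on all arrays, thus lies between S100a4, higher in both lectin-binding gates, and S100a8. S100a1, lower in GFP+ than in columnar cells, is at one end of this row and S100a9, higher there, at the other. Past S100a9 comes S100a7l2, with 1 other coding gene between them. S100a11 and S100a10 are neighbours of each other, with 54 coding genes between S100a7l2 and S100a11.

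Of 6 other S100 family genes listed, 4 were measured. S100a3, known from hair cuticle cells, had signals of 7.72, 9.30 and 8.89 in GFP+ cells, of 9.66, 9.96 and 9.62 in lectin-only cells and of 5.75, 5.28 and 7.41 in columnar cells. It rose in both lectin-binding gates against columnar cells, by 2.49 ± 0.54 in GFP+ (adjusted p = 0.0131) and by 3.60 ± 0.54 in lectin-only cells (adjusted p = 0.00252). Its highest columnar and lowest GFP+ arrays were those of S100a9, and its likeness to S100a9 was 0.67. S100g, or calbindin D9k, a calcium buffer of absorptive epithelia, was higher by 1.19 ± 0.20 in lectin-only than in columnar cells (adjusted p = 0.00465) and lower in GFP+ than in lectin-only cells, at -1.12 ± 0.20 (adjusted p = 0.0147). S100b, a marker of Schwann cells and cartilage, and S100a5 passed no test. At an unadjusted p under 0.05, S100b was lower in GFP+ and in lectin-only than in columnar cells, as were 12.1% and 6.93% of all genes. S100a5 was under background on all GFP+ and columnar arrays and on 2 of 3 lectin-only arrays. Of 7 Schwann cell and cartilage genes 1 was higher in each lectin-binding gate than in columnar cells, against 5.88% and 6.47% of all genes.

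Of 35 listed partners and receptors of S100 proteins, 31 were measured. In GFP+ against columnar cells 6 were higher and 4 lower, in lectin-only against columnar cells 7 were higher and 1 lower, and in GFP+ against lectin-only cells 1 was higher and 3 lower, with medians of -0.02, 0.01 and -0.11. Higher and lower shares of all genes were 5.88% and 5.33%, 6.47% and 2.38%, and 0.896% and 2.84% in the same order. Without lectin-only replicate 3 the list counts were 6 and 3, 6 and 2, and 1 and 1. Dlc1, a protein that binds S100A10 in human cells, averaged 9.96 ± 0.30 in GFP+ cells, 7.77 ± 0.52 in lectin-only cells and 4.43 ± 0.59 in columnar cells. It was above columnar cells by 5.53 ± 0.35 in GFP+ cells (adjusted p = 1.4e-05) and by 3.34 ± 0.35 in lectin-only cells (adjusted p = 0.000335). Tgm1, a transglutaminase of the cornified envelope, was above them by 3.54 ± 0.45 (adjusted p = 0.000612) and 4.38 ± 0.45 (adjusted p = 0.000316) in the same gates.

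The calprotectin receptors Tlr4 and Ager, chosen after their values were seen, met the limits in none of the 3 comparisons. Tlr4 averaged 9.41 ± 0.31 in GFP+ cells, 9.50 ± 0.18 in lectin-only cells and 9.68 ± 0.16 in columnar cells (adjusted p = 0.474, 0.705 and 0.902 in GFP+ against columnar, lectin-only against columnar and GFP+ against lectin-only cells). Ager averaged 6.20 ± 0.33, 5.98 ± 0.39 and 6.11 ± 1.73 in the same gates (adjusted p = 0.964, 0.95 and 0.941). Cd69, a leukocyte activation antigen reported as a human receptor of the complex, averaged 5.78 ± 1.24 in GFP+ cells, 8.87 ± 0.28 in lectin-only cells and 3.19 ± 0.69 in columnar cells. Cybb, the phagocyte oxidase subunit, averaged 4.88 ± 0.81, 8.0 ± 0.19 and 4.68 ± 0.63 in the same order, and was lower in GFP+ than in lectin-only cells at -3.12 ± 0.42 (adjusted p = 0.00399). Cd36, a fatty acid receptor, was highest in columnar cells, at 10.19 ± 0.34 in GFP+ cells, 11.10 ± 0.22 in lectin-only cells and 12.32 ± 0.10 in columnar cells. With all arrays Cd36 was the 1 measured partner on the list that fell in both lectin-binding gates. Its differences were -2.13 ± 0.21 in GFP+ cells (adjusted p = 0.000153) and -1.22 ± 0.21 in lectin-only cells (adjusted p = 0.00485). Without lectin-only replicate 3, Trpv6, also on the list, fell in both as well, at -1.59 (adjusted p = 0.00325) and -1.57 (adjusted p = 0.0102).

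The epidermal differentiation complex, the stretch of chromosome 3 around the S100 cluster, had 20 of 26 listed genes measured. In GFP+ against columnar cells 4 were higher and 1 lower, with a median of 0.14, against 5.88% and 5.33% of all genes. In lectin-only against columnar cells 6 were higher, with a median of 0.86, or 4 without lectin-only replicate 3. With all arrays 6.47% of all genes were higher there. Sprr3 and Sprr1a, precursors of the cornified envelope, were above columnar cells by 5.01 ± 0.92 (adjusted p = 0.00699) and 4.68 ± 0.83 (adjusted p = 0.00572) in lectin-only cells. Rptn, the fused S100-domain gene repetin, went the other way, at -3.28 ± 0.62 in GFP+ against columnar cells (adjusted p = 0.00616) and -2.65 ± 0.62 in GFP+ against lectin-only cells (adjusted p = 0.0464), a call lost without lectin-only replicate 3 (-2.14, adjusted p = 0.147). Flg, Hrnr, Lce1a1 and Lce1g were under background on all 9 arrays.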

How the data were processed

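Every array has 1 column of deposited log2 signals, 1 per probe set. The authors used RMA, per the submitters' processing notes, a method that corrects background, quantile-normalizes arrays and summarises probes. Its software version and any filter are not given in the sources used here. Of 45101 probe sets, 64 were controls. In the platform annotation 34945 probe sets had 1 gene symbol, 932 had several and 9160 had none. Symbols of 34741 were updated through a RefSeq table. Each gene was represented by the probe set with 1 symbol and the highest mean over 9 arrays, giving 18193 genes, 9010 of them with several probe sets. Probe sets with several symbols, S100a11's among them, were read only as probe sets.

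Group means were fitted to all 9 arrays by lmFit and eBayes of limma 3.58.1 (R 4.3.3). The fit had 6 residual degrees of freedom, and eBayes added 3.46. Benjamini-Hochberg adjustment ran over all genes in each comparison separately. Calls needed an adjusted p under 0.05 together with a difference of at least 1 on the log2 scale. The background level of 3.56 was the 95th percentile of 80 olfactory and vomeronasal receptor probe sets. No pairing by replicate number and no batch entered the fit. Whether replicates came from separate mice was not stated beyond the word biological. On simulated data for GFP+ against columnar cells over 18193 genes, 58% of 100 genes changed by 1.5 on the log2 scale and 96% of 100 changed by 3 were called, and 8 of 17993 unchanged genes were.

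The S100 genes and the 15 marker and pathway lists (209 of 234 entries measured) were chosen with earlier results of these data known. Genes named from a list with a difference are mainly called members of large change, at most 4 per comparison. Not every such member is named, and others, such as Cd36 and Trpv6, were picked after their values were seen. Likeness names the 3 closest genes, without clone and model names. Promoter windows are RefSeq's (GRCm38.p6) and were found for 8 of the 10 genes, not for S100a10 and S100a14. Alternatives tried were other scaling (arrays centred or quantile-normalized again), a replicate block, the mean over probe sets, a filter on dim genes, eBayes with trend and robust, a fit of only the 2 gates compared, the adjusted p alone, and leaving out each array.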

Additional observations from a re-analysis of the deposited data

How the results depend on the processing

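Counts of S100 genes called higher kept within 1.5 times their value under every alternative run: leaving out 1 array each gave 3 to 4 in GFP+ against columnar cells, 4 to 5 in lectin-only against columnar cells and 0 to 0 in GFP+ against lectin-only cells. The count called lower in lectin-only against columnar cells stayed at 0, and that in GFP+ against columnar cells stayed at 1 without any array but was 2 with the adjusted p alone, which added S100a13. In GFP+ against lectin-only cells the count called lower was 1, and 1 to 2 without 1 array. It was 2 with the replicate block, with eBayes trend and robust, and with only the 2 gates in the fit, each adding S100a9 (adjusted p = 0.0417, 0.0448 and 0.0361; 0.0361 to 0.0982 over the alternatives other than leaving out an array, 0.0214 to 0.253 without 1 array). The labels do not say whether replicate numbers pair the samples. Deviations from gate means correlated at -0.07 to 0.33 in 9 same-number pairs and at -0.47 to 0.17 in 18 others. The ranges overlapped, but the highest values were those of same-number pairs. With the block, 1165 genes were higher in GFP+ and 1313 in lectin-only than in columnar cells, against 1069 and 1177 without it. It changed no other S100 call. Against columnar cells the calls of S100a8, S100a9 and S100a4 in both lectin-binding gates and of S100a1 in GFP+ cells were kept under every alternative run, S100a8 at 2.56 to 2.98 in GFP+ cells without 1 array. Signal over background limits S100a8, with 2 of 3 columnar arrays under it. Differences near 0 turned sign. With arrays centred, S100a6 was -0.04, -0.16 and 0.12 in the 3 comparisons, and S100a4, S100a10 and S100a16 were 0.09, 0.10 and 0.02 in GFP+ against lectin-only cells, where S100a10 was 0.08 with the mean over probe sets. There S100a4 was 0.02 after quantile normalization, and ran from -0.18 to 0.01 without 1 array, with 0.00 without GFP+ replicate 3 and 0.01 without lectin-only replicate 1. The mean over probe sets raised S100a10 to 1.64 and 1.57 against columnar cells. Centring moved the median of all genes in lectin-only against columnar cells from 0.07 to -0.17, and the split of all genes there was 974 higher and 699 lower, against 1177 and 433. In GFP+ against lectin-only cells it gave 256 higher, against 163. Without GFP+ replicate 1 that comparison had 85 higher and 288 lower genes, without lectin-only replicate 1 it had 96 higher, and without lectin-only replicate 3 it had 310 lower, against 517 with all arrays; the cause was not tested. Counts of list genes without lectin-only replicate 3 were added after seeing the data.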
